A study of Mus musculus with 12 samples.

Results

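Cirbp and Rbm3 are the 2 cold-inducible members of the RBM family of RNA-binding protein genes, and their transcripts were followed in mouse airway organoids after laser ablation of 10 neighboring cells per organoid. The pair of genes was selected on these data, by their gene names and because both had a higher normalized count after ablation than in the control in all 6 pairs of dishes. They are 2 of the 55401 genes listed, both passed the filter on low values, and 13792 genes passed it in all. Because the choice rests on the difference between ablation and control, that difference is described for both genes without a test.

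Both genes encode small proteins with 1 RNA recognition motif followed by a glycine-rich tail, and both are known for transcripts that rise when mammalian cells are cooled mildly below body temperature. CIRBP also accumulates after ultraviolet light and hypoxia, binds the 3′ ends of selected messenger RNAs, and is known to shape the amplitude of circadian transcripts. RBM3 binds AU-rich messenger RNAs, supports translation in the cold and is best known for protecting synapses in the cooled brain. Exons whose inclusion is set by temperature are known to add to the control of both transcripts, through the splicing factor HNRNPH1 for Rbm3 and through CLK kinases and SR proteins more generally.

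The study asked how airway epithelium responds to a small local injury. Bulk RNA was sequenced from 12 dishes of 45 organoids, 6 in which a femtosecond laser had destroyed these cells and 6 control dishes without laser treatment. All 12 came from airway epithelial cells of adult wild-type C57BL/6J mice and carried a lentiviral vector that drives a Histone2A-mCherry fusion protein from the p63 promoter, which is active in basal cells, the stem cells of this epithelium. All dishes received FluoroBrite DMEM without supplements 1 h ahead of the laser session, and organoids were harvested 4.5 h after it.

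Dishes of the same number (1, 3, 4, 5, 6 and 7) shared their passage and culture day and formed the 6 pairs, with passages P2+14 to P2+16 and culture days 14 to 20. The labels do not say whether pairs came from separate mice, so p-values measure only the spread between these dishes. Pairs 1, 3 and 5 carry one run of library numbers (library set 1) and pairs 4, 6 and 7 another (library set 2). The titles of control dishes 4, 6 and 7 contain the word ablation, while their treatment label says control, and they were grouped by the treatment label. The differences of both members and the splits of the lists are therefore also given for library set 1 alone, which none of these 3 dishes enters. Level comparisons, correlations within groups and the calls in the paired model use all 6 pairs. Dishes for RNA were incubated at 37 °C from ablation to harvest. For the RNA experiment the study states that control dishes were prepared in the same way and shared the experimental conditions of the ablation dishes. Culture conditions throughout the procedure are stated for the imaging experiments of the study. The dish temperature during the laser session is not stated for the RNA dishes.

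The tissue label was checked against marker genes. Of 7 basal cell markers, all passed the filter, and their summed normalized counts were 481549 to 626126 in ablation dishes and 477417 to 610604 in control dishes. Of 6 secretory markers, 4 passed, nearly all of their sum being Cyp2f2, and the sums were 26262 to 78673 (ablation) and 31384 to 66738 (control). The multiciliated (2 of 6 passing), fibroblast (1 of 6), immune (2 of 5) and endothelial (0 of 4) lists summed to at most 204 normalized counts in any library, with Tekt1 and Kdr at 0 in all 12. Of the 4 alveolar type II markers, Sftpc and Sftpb were at 0 in all libraries and Abca3 held nearly all of a sum of 971 to 1283. Recovered read totals, available for 9 of the 12 libraries, lay between 23631212 and 29775699.

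On GRCm38.p6, Cirbp (ENSMUSG00000045193.13) lies on the plus strand of chromosome 10 from 80165985 to 80172786, and Rbm3 (ENSMUSG00000031167.16) on the minus strand of chromosome X from 8138975 to 8145880. The annotation lists 7 transcripts of Cirbp, of which 2 are protein coding, 4 retain an intron and 1 is a nonsense-mediated decay form, and 11 of Rbm3, of which 6 are protein coding, 2 retain an intron and 2 are decay forms. The deposited values are sums over a whole gene, so these forms were not separated here. The coding sequence is 519 bases long in Cirbp-202 and 465 in Rbm3-201, and 330 of 453 aligned bases (72.8%) are the same. Glycine codons make up 20.3% of the codons of Cirbp and 20.1% of those of Rbm3.

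The stretch that encodes RNP1, the conserved core of the RNA recognition motif, is shown because it is what makes both genes RNA-binding relatives. It spans codons 47 to 54 in each coding sequence, taken from the GENCODE transcripts, and capitals mark the 6 of 24 bases that differ.
Cirbp: cgAggCtttggGttTGtcaccttT
Rbm3: cgGggTtttggCttCAtcaccttC

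The region upstream of a RefSeq start of Cirbp is shown because it holds the letters of a mild cold response element, a short motif known from work on cold induction of this gene. It is the plus strand of GRCm38.p6 from chr10:80167589-80167838, the 250 bases before that start, and capitals mark the motif.
Cirbp: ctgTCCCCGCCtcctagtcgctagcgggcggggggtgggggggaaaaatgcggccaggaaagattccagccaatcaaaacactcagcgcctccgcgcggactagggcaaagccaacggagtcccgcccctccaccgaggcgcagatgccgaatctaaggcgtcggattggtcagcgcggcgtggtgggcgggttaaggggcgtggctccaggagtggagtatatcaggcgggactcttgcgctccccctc
The motif TCCCCGCC was found once, on the plus strand at position -247 counted from the start, in a search of both strands. The same letters occur in 5.38% of the 32851 RefSeq windows of 300 bases searched, so the match is not rare. The pattern GAANNTTC, the core of a heat shock element, was not found in this window and occurs in 7.86% of all windows. CCAAT was found at -181 on the plus strand and at -85 on the minus strand, and occurs in 37.41% of windows. None of the 3 patterns was found in the second listed window of Cirbp, which begins at 80167921, and none of them overlaps another here. A match is a description of the letters and not a binding site.

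Cirbp was the more variable member in its difference between groups. In pair 1 it had 1801 normalized counts after ablation and 1451 in the control. In pair 3 the values were 1789 and 1464, and in pair 5 they were 1690 and 1339. These 3 pairs of library set 1 resembled each other closely. In pair 4 the ablation dish had 2288 and the control 1394. In pair 6 the values were 1872 and 1294, and in pair 7 they were 1604 and 1448. The lowest ablation dish therefore stood above the highest control dish, and dish 4 was the highest of all 12. Of all genes tested, 34 (0.247%) had every ablation dish above every control dish, and 10 of these had a larger mean difference than Cirbp. The mean was 1841 ± 238 (SD, n = 6) in ablation dishes and 1398 ± 69.2 in control dishes, a ratio of geometric means of 1.31. In bulk RNA a change in the share of a cell type and a change in RNA per cell cannot be told apart.

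The coefficient of variation of Cirbp was 12.9% over the ablation dishes and 4.95% over the control dishes, and it was 5.99% over the ablation dishes without dish 4, as computed after the data were seen. The counting error of a single library was between 2.30% and 2.84% where reads could be recovered, which is below all of these. On the log2 scale Cirbp differed by 0.39 (standard error 0.075 in the library set model and 0.063 with the pair in its place). Differences within pairs ran from 0.15 in pair 7 to 0.71 in pair 4, with an SD of 0.20. Without pair 4 the difference was 0.32, and in library set 1 alone it was 0.31, against 0.47 in library set 2. Cirbp stood at rank 331 of 13792 by its log2 difference and near the middle of the range by level, at percentile 65.0.

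**Figure D1:**
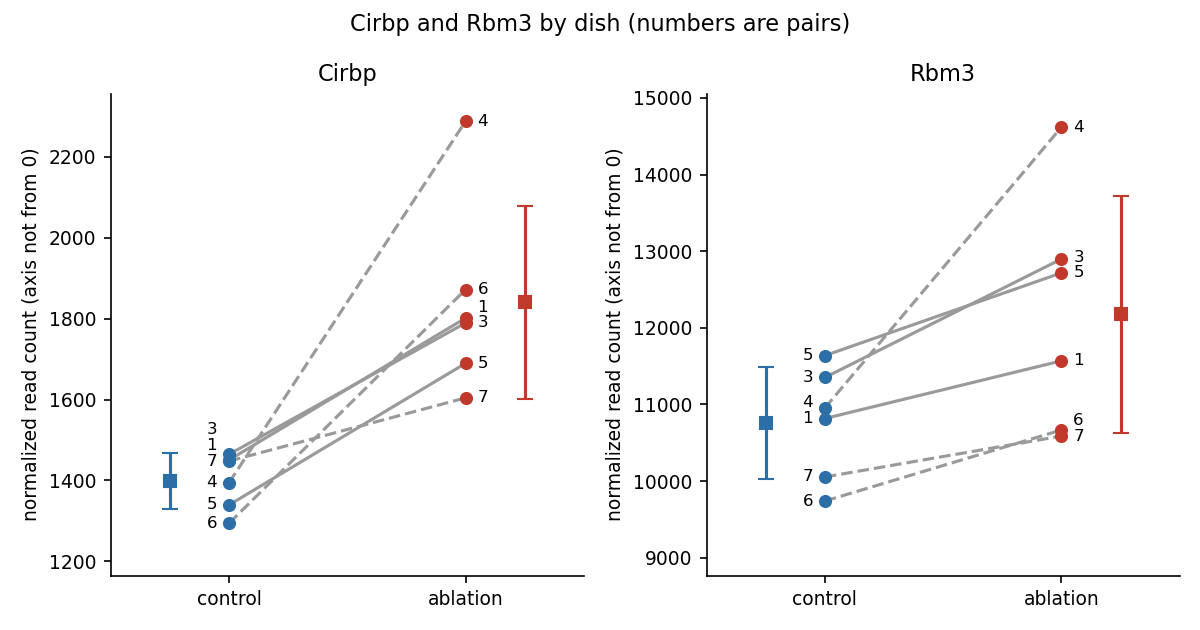
Normalized read counts (vertical axes, not starting at 0) of Cirbp and Rbm3 in the control and ablation dishes. Circles are dishes, numbers and lines join the dishes of a pair (solid for library set 1, dashed for library set 2) and squares with bars are means ± SD of 6 dishes. For Cirbp all ablation dishes lie above all control dishes, while for Rbm3 the groups overlap.

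Rbm3 was the more abundant member, with a smaller difference. In pair 1 it had 11569 normalized counts after ablation and 10817 in the control. In pair 3 the values were 12899 and 11352, and in pair 5 they were 12718 and 11638. The log2 differences of pairs 1, 3 and 5 were 0.097, 0.184 and 0.128. They were less alike than those of Cirbp in these pairs, which were 0.312, 0.289 and 0.335. In pair 4 the ablation dish had 14620 and the control 10954. In pair 6 the values were 10667 and 9740, and in pair 7 they were 10588 and 10054. The groups overlapped, since ablation dishes 6 and 7 lay below 4 of the 6 control dishes, and the rule was met within pairs and not between groups. The mean was 12177 ± 1546 (SD, n = 6) in ablation dishes and 10759 ± 735 in control dishes, a ratio of 1.13.

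The coefficient of variation of Rbm3 was 12.7% after ablation (9.37% without dish 4) and 6.83% in the control, and counting error was 0.859% to 1.08%. The log2 difference was 0.17 (standard error 0.075 in the library set model and 0.046 with the pair). Within pairs it ran from 0.07 in pair 7 to 0.42 in pair 4, with an SD of 0.13. Without pair 4 it was 0.12, and it was 0.14 in library set 1 and 0.21 in library set 2. Rbm3 stood at rank 1405 by its log2 difference and at percentile 97.2 by level, so it was among the abundant transcripts of these organoids.

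Both members met the rule at pair differences as small as 0.15 for Cirbp and 0.07 for Rbm3. By the same rule 713 genes (5.17%) were higher after ablation in all 6 pairs and 638 were lower in all 6, while 1751 were higher in 5 of 6. Of the 713, 102 had a larger mean difference than Cirbp and 337 a larger one than Rbm3, and their median was 0.17. Pair 4 held the largest difference for both members, as it did for 169 (23.7%) of the 713, and pair 7 the smallest for both. Of the 37 other RBM family genes tested, 4 were also higher in all 6 pairs, namely Rbm5, Rbm27, Rbm39 and Rbm48, against 5.17% of all genes. The family genes just outside the rule, higher in 5 of 6 pairs, were Rbm7, Rbm10, Rbm15, Rbm18, Rbm41 and Rbmx2. Over all genes the median difference was -0.0036 and 48.5% were higher, and the median of each pair lay between -0.01 and 0.01.

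**Figure D2:**
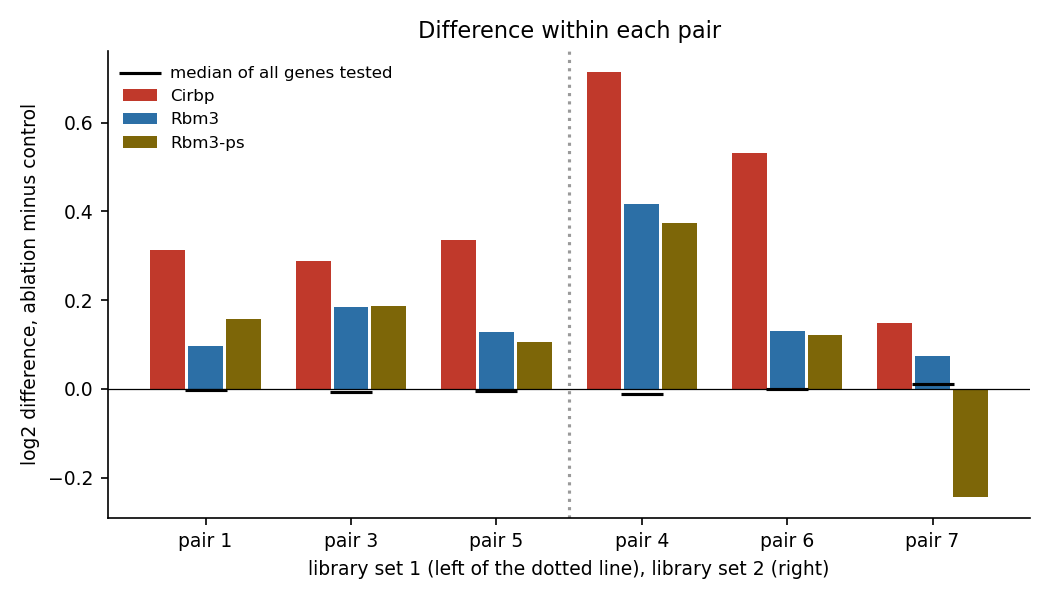
Log2 difference, ablation minus control (vertical axis), in each pair (horizontal axis) for Cirbp, Rbm3 and the pseudogene Rbm3-ps, with a black dash for the median of all genes tested. Cirbp runs from 0.15 to 0.71 and Rbm3 from 0.07 to 0.42, both largest in pair 4 and smallest in pair 7, while Rbm3-ps is below 0 in pair 7.

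**Figure D3:**
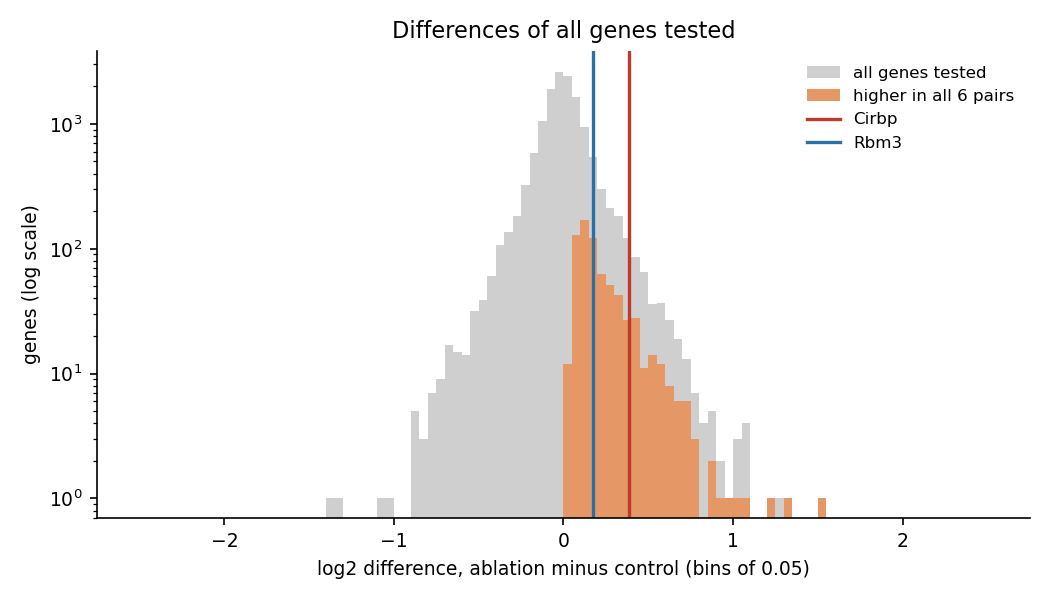
Number of genes (vertical axis, log scale) by log2 difference, ablation minus control (horizontal axis, bins of 0.05), for all 13792 genes tested (grey) and the 713 higher in all 6 pairs (orange). Vertical lines mark Cirbp at 0.39, in the upper tail, and Rbm3 at 0.17, near the median of the orange genes.

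Genes that could share reads with the members were looked at next. The processed pseudogene Rbm3-ps, on chromosome 1 from 150265535 to 150265999, is the same as the Rbm3 coding sequence at 462 of 465 bases (99.4%), and 61.38% of its stretches of 75 bases, the read length, occur in Rbm3. It had 78.8 to 163 normalized counts after ablation and 87.9 to 146 in the control, was higher in 5 of 6 pairs and differed by -0.24 in pair 7. How the counting assigned shared reads is not stated, so the pseudogene's value is uncertain. Its counts were small beside those of Rbm3. Of the stretches of that length listed for Rbm3, 4.62% occur in the pseudogene, which is not a share of the Rbm3 reads. The part of the Rbm3 count open to sharing was not measured. Cirbp shared no stretch of that length with Rbm3 or the pseudogene. Rbm3os, antisense to the start of Rbm3, had 15.8 to 30.04 after ablation and 14.4 to 21.2 in the control, and the strand setting of the counting is not given in the sources used here. The gene that follows Cirbp on the same strand, 1600002K03Rik, had 329.6 to 473 and 352 to 484, with overlapping groups.

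The levels of both members were then compared across culture day, passage and library set, using the mean of both dishes of a pair. The ablation dish enters this mean, so a larger difference within a pair also moves it. In the control dishes, Cirbp ran from 1294 at day 18 to 1464 at day 20 and Rbm3 from 9740 at day 18 to 11638 at day 15. Per day, Cirbp changed by -0.01 on the log2 scale (standard error 0.017, adjusted p = 0.959 by limma over all genes tested) and Rbm3 by -0.02 (standard error 0.020, adjusted p = 0.945). No gene (0%) passed for culture day, with 743 at an unadjusted p under 0.05. Per passage, Cirbp changed by -0.04 (standard error 0.048, adjusted p = 0.793) and Rbm3 by -0.09 (standard error 0.051, adjusted p = 0.515), and 5 genes (0.0363%) passed.

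Between library sets, set 2 minus set 1 was 0.04 for Cirbp (standard error 0.079, adjusted p = 0.898 by limma) and -0.10 for Rbm3 (standard error 0.094, adjusted p = 0.719). Here 0 genes (0%) passed and 1293 had an unadjusted p under 0.05. For Cirbp the set difference was -0.0412 in control dishes alone and 0.1117 in ablation dishes alone. Passage and library set overlap in large part, since only P2+15 occurs in both sets, in pair 5 of set 1 and pair 4 of set 2. Their parts were not separated. A difference by day, passage or set was therefore not detected for either gene with 6 pairs, and the standard errors show how large a change could be missed. Over the alternatives the adjusted p for these levels lay between 0.242 and 1.

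The levels of the 2 members were also compared with each other within each group. Over the 6 control dishes Pearson's r was 0.265 (exact permutation p = 0.593) and Spearman's rho 0.257 (exact permutation p = 0.658), and r was 0.002 without the 2 dishes farthest from the median of Cirbp. Over the 6 ablation dishes r was 0.684 (exact permutation p = 0.126) and rho 0.486 (exact permutation p = 0.356). Without ablation dishes 4 and 7 it was -0.79, so the value rested on them. Adjusted over these 4 relations, two-sided p-values by the exact permutation test were 0.506 to 0.658. The differences within pairs followed the same order at both ends, pair 4 first and pair 7 last. Over 6 pairs r was 0.823 and rho 0.657, given as a description, since these differences chose the genes. Neither value was computed without pair 4, which was the largest for both members.

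Within the RBM family, levels can be compared per kilobase of gene model. In the control, Rbm3 had 2290 ± 156 normalized counts per kb (SD, n = 6), the highest of 43 family genes listed with the members, above Rbm39 with 1661 ± 113 and Rbm17 with 1397 ± 130. Cirbp was in place 10 with 537 ± 26.6, next to Rbm7 with 576 ± 23.8 above it and Rbmx with 425.5 ± 20.8 below it. The gap between Rbm7 and Cirbp was within the sum of their SDs, and the others named were farther apart than that. By log2 difference, Cirbp was in place 1 and Rbm3 in place 5 of the 39 family genes tested. High places are favored by the rule that chose them, so this order is a description only.

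The 37 other RBM genes tested were split evenly, 19 higher and 18 lower after ablation, with a median log2 difference of 0.00, and 19 to 18 in library set 1 alone. In the library set model 0 of 13792 genes (0%) passed an adjusted p of 0.05 by limma. At an unadjusted p under 0.05 there were 1083 (7.85%), 5 of them in this family. A run of edgeR on recovered reads, which lacked pair 4 and ablation dish 3, also called 0. In the paired model 93 genes (0.674%) passed as higher and 57 (0.413%) as lower, and 8 in all without pair 4. Of the family, Rbm45, an RNA-binding gene expressed in neural tissue, was the only one that passed in the paired model, as lower. Ablation dishes had 1273 ± 108 and control dishes 1497 ± 95.6 normalized counts (SD, n = 6), and the log2 difference was -0.24, with all 6 pairs lower. Its adjusted p by limma was 0.470 in the library set model, 0.0152 in the paired model and 0.0698 without pair 4. Its difference was -0.25 in library set 1 and -0.23 in library set 2. Rbm12b1 (0.28) and Rbm38 (-0.26, a p53 target that binds messenger RNA) had the largest other differences and did not pass.

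**Figure D4:**
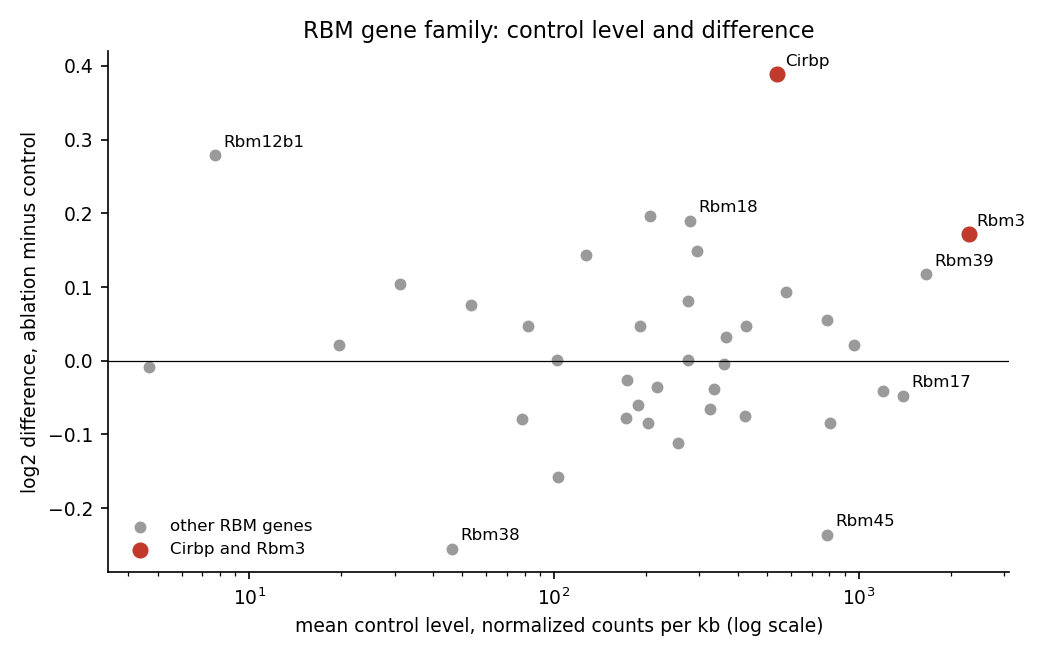
Log2 difference, ablation minus control (vertical axis), against mean control level in normalized counts per kb (horizontal axis, log scale) for the 39 RBM genes tested. Cirbp at 0.39 and Rbm3 at 0.17 (red) lie among the higher differences, as the rule that chose them favors. The 37 other genes (grey), of which 4 also rose in all 6 pairs, fall evenly on both sides of 0.

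Splicing regulators tied to the temperature-set exons were described by lists. Of 22 hnRNP genes, which encode nuclear RNA-binding and splicing proteins, 20 were lower and 2 higher, with a median of -0.07. Of these 22, 5 had an unadjusted limma p under 0.05, against 7.85% of all genes tested, and 0 passed in either model. The split was 20 to 2 with quantile normalization and with TMM, 21 to 1 in library set 1 and 16 to 6 in library set 2. Hnrnph1 had 14120 ± 1117 in the control and 13211 ± 1017 after ablation, and differed by -0.10 (adjusted p = 0.191 in the paired limma model, lower in 6 of 6 pairs). Hnrnpa0 (-0.17), Hnrnpm (-0.15) and Hnrnpdl (0.20, all 6 pairs higher) had the largest differences of the list, with adjusted p-values by limma of 0.102, 0.0688 and 0.0593 in the paired model.

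Of 18 SR protein and CLK kinase genes tested, 12 were higher and 6 lower, with a median of 0.05. None had an unadjusted limma p under 0.05, against 7.85% of all genes tested. In library set 1 alone 13 were higher and 5 lower. Clk1 and Clk4, kinases known to sense small changes in temperature, differed by 0.05 and -0.02, each higher in 3 of 6 pairs. Srsf5, whose splicing is known to follow temperature, differed by -0.03. Srpk2 (0.14), Srsf2 (0.14) and Tra2b (0.13) had the largest differences and did not pass. Of 5 cold-shock domain genes tested, which are relatives of bacterial cold-shock proteins, 3 were higher and 2 lower, as in library set 1 alone, with a median of 0.01. Ybx1, the most abundant at 26055 ± 2249 in the control, differed by -0.03, Ybx2 by 0.13 and Ybx3 by -0.15, and none passed.

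Heat shock genes, the textbook counterpart of the cold-inducible ones, were mostly lower in mean, without passing the test. Of 22 targets of the transcription factor HSF1 tested, 15 were lower and 7 higher, with a median of -0.06. Among them 1 had an unadjusted limma p under 0.05, against 7.85% of all genes tested. The split was 16 lower and 6 higher in library set 1 and 13 to 9 in library set 2. The inducible chaperone gene Hspa1b had 2605 ± 489 after ablation and 2940 ± 244 in the control and differed by -0.19, lower in 5 of 6 pairs, and its near-identical copy Hspa1a by -0.17, so reads may be split between them. The constitutive Hspa8 differed by 0.00. Hspa4l, a nucleotide exchange factor of HSP70, was the only one that passed in the paired model, as higher. It differed by 0.23, and all 6 pairs were higher. By limma its adjusted p was 0.598 in the library set model, 0.0489 in the paired model and 0.160 without pair 4. Its difference was 0.33 in library set 1 and 0.14 in library set 2. Dnajb4 (0.19) did not pass.

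Transcripts known to be bound or regulated by CIRBP or RBM3, and the clock genes, were examined in the same way. Of 8 client transcripts, 5 were higher and 3 lower, with a median of 0.01, against 4 and 4 in library set 1 and 6 and 1 of 7 tested in library set 2. Ptgs2, the cyclooxygenase that makes prostaglandins and an AU-rich messenger bound by RBM3, had 13659 ± 3891 in ablation and 8565 ± 2881 in control dishes. Its log2 difference was 0.66, with 5 of 6 pairs higher. It had an unadjusted p of 0.0143 in the library set model, and its adjusted p was 0.116 in the paired limma model. Vegfa differed by 0.20 with all 6 pairs higher (adjusted p = 0.0603, paired limma model), and Ntrk2, the BDNF receptor gene, by -0.39 at no more than 18.7 normalized counts in any library. Txn1 (0.05), Rpa2 (0.01) and Clock (0.02), known clients of CIRBP, did not pass.

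Of 19 clock genes, 13 were higher and 6 lower, with a median of 0.06. Of these 19, 5 had an unadjusted limma p under 0.05, against 7.85% of all genes tested. Bhlhe40, a repressor within the clock, was the only one that passed in the paired model, as higher. It had 4265 ± 594 in ablation and 3482 ± 872 in control dishes, and all 6 pairs were higher, with a log2 difference of 0.32. By limma its adjusted p was 0.629 in the library set model, 0.0209 in the paired model and 0.108 without pair 4. Its difference was 0.37 in library set 1 and 0.27 in library set 2. Per1 (0.27) and Npas2 (-0.43) had adjusted p-values of 0.0755 and 0.0947 in the paired limma model. The clock list was split 12 to 7 in library set 1 and 10 to 9 in library set 2.

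**Figure D5:**
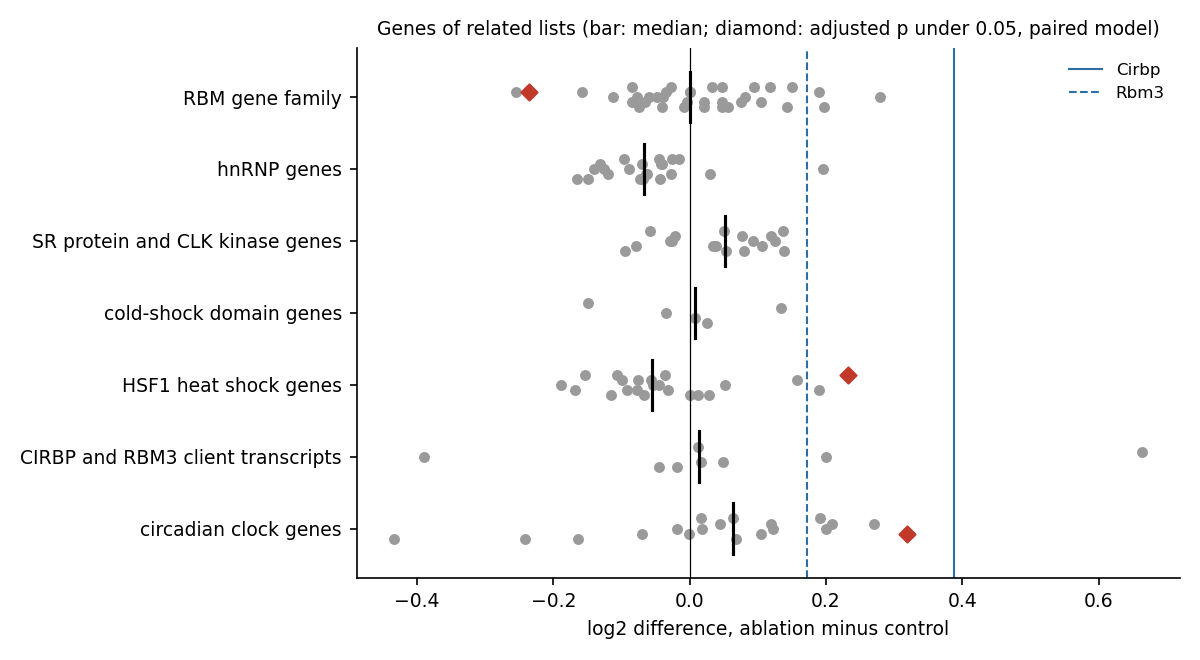
Log2 difference, ablation minus control (horizontal axis), of every tested gene of 7 lists (rows), with a black bar at each median. Red diamonds are the 3 genes with an adjusted p under 0.05 in the paired limma model, Rbm45, Hspa4l and Bhlhe40, and blue lines mark Cirbp (0.39) and Rbm3 (0.17). The hnRNP and heat shock points lie mostly below 0.

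Measures of other cells and of handling were set beside the members. Of the basal markers, 4 were higher and 3 lower with a median of 0.02 (0.07 in library set 1 and -0.03 in set 2), and Trp63, the basal cell transcription factor, was the only one that passed in the paired model (0.39, all 6 pairs higher, adjusted p = 0.00825 by limma, against 0.187 in the library set model and 0.0552 without pair 4). The secretory markers tested were lower in 4 of 4 with a median of -0.20 and the multiciliated ones in 2 of 2 with a median of -0.14. In library set 1 alone the secretory median was -0.20, and of 3 multiciliated genes that passed the filter there 2 were higher, with a median of 0.09, against -0.29 in set 2. Fibroblast, immune and alveolar type II medians were 0.04, -0.29 and 0.00, and none of these passed. The 13 mitochondrially encoded genes held 1.09% to 1.58% of the normalized counts after ablation and 1.18% to 1.59% in the control, and 9 of 11 tested were lower with a median of -0.06. Of 8 immediate early genes, which respond within minutes to handling and injury, 7 were higher with a median of 0.25 and none passed. That median was -0.02 in library set 1 and 0.48 in library set 2. The part of any of these in the values of the members was not tested.

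Finally, the 5 genes whose log2 values followed each member most closely over the 12 libraries were listed, as a description, since these libraries share both groups and 1 normalization. For Cirbp they were Nqo1 (r = 0.932), which encodes a quinone reductase of the antioxidant response, Ttc5 (0.916), Wdr5b (0.906), Arrdc3 (0.887), an alpha-arrestin gene, and Hcfc2 (0.886). All 5 were higher after ablation in 6 of 6 pairs, as the difference between groups is part of the likeness. Nqo1 had 1925 ± 396 after ablation and 1273 ± 39.7 in the control. For Rbm3 they were Ass1 (0.962), the gene of the arginine-synthesis enzyme argininosuccinate synthase, Gm12355 (0.914), Gdap2 (0.897), Ica1l (0.892) and Tsta3 (0.873). Ass1 had an r of 0.974 with Rbm3 over the 6 control dishes alone, where it was in place 15 of all genes, so this likeness was also present within the control group. The genes like Rbm3 other than Ass1 had an r of 0.744 to 0.803 there. For Cirbp, r over the control dishes alone was 0.716 with Nqo1, 0.300 with Ttc5, 0.062 with Wdr5b and 0.741 with Hcfc2. With Arrdc3 it was reversed, at -0.787. Gm12355 and Ica1l had fewer than 30 normalized counts on average. The members had an r of 0.729 with each other, which put Rbm3 in place 67 for Cirbp and Cirbp in place 137 for Rbm3. With Spearman's rho 2 of the 5 genes remained for each member, and over the control dishes alone 0 of 5.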

How the data were processed

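The authors made stranded poly(A) libraries, sequenced pairs of reads of 75 bases, processed them with the nf-core RNA-seq pipeline on GRCm38.p6 with the GENCODE annotation, and scaled every library by its own size factor from DESeq2. These normalized counts are the signal values the authors deposited. Columns of the authors' own comparison (log2 fold change, standard error, Wald statistic and p-values) were not used.

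Values were whole multiples of 1 step in 100% of cases (tolerance 0.1), and reads were recovered for 9 of 12 libraries. In the other 3, which were both dishes of pair 4 and ablation dish 3, the step was too near 1 to be accepted. A gene was tested if 6 or more libraries held 10 or more of its normalized counts, with limma 3.58.1 (R 4.3.3) on log2(value + 1), with trend, robust variances and Benjamini-Hochberg adjustment at 0.05. The model held condition and library set, taken as what the methods call batch without defining it, or the pair in its place. Fold changes are on the log2(value + 1) scale. Same-numbered dishes deviated together (r = 0.62, 0.49, 0.21, 0.32, 0.38 and 0.33 across genes). Dishes of different numbers were not set beside these, so the pairs rest on the shared number, passage and day. edgeR 4.0.16 tested recovered reads. On data simulated for 13792 genes, the library set model recovered 39.5% of 200 changed genes (0% at 1.2-fold and 79% at 1.5-fold) and the paired model 71.5%, with 4.7% false calls. edgeR on 9 libraries recovered 33.5% of them among 13751 genes. In this simulation every gene had a random pair effect and the same setting for extra spread between dishes. It held no library set effect and no pair that stood apart, so these shares may not hold for the real data.

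The members and lists were chosen with earlier results of these data known. Named genes are the members, the 3 largest differences of each list of regulators and genes with a textbook link to the members. The 5 genes most like each member and defining markers were also named. Rbm5, Rbm7, Rbm10, Rbm15, Rbm17, Rbm18, Rbm27, Rbm39, Rbm41, Rbm48, Rbmx and Rbmx2 were named for their rank or pair count. The alternatives were other pseudocounts, filters, normalizations, variance models and library subsets, and the block.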

Additional observations from a re-analysis of the deposited data

Results flagged for a closer look

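Of 84 groups of 6 dishes examined for 42 genes, 4 held a dish that stood apart from the nearest other by more than Dixon's 95% critical share of the range of its group, where about 1 in 20 groups does so by chance. Neither Cirbp nor Rbm3 was among them. For Hnrnpdl, control dish 1 had 5067 normalized counts and the next 5982. For Hspa1b, ablation dish 1 had 3540 and the next 2646. For Ptgs2, control dish 5 had 14180 and the next 8864. For Tra2b, control dish 5 had 9330 and the next 7659.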

How the results depend on the processing

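The log2 difference of Cirbp lay between 0.31 and 0.47 and that of Rbm3 between 0.10 and 0.21 under 16 alternatives each, all above 0. The rule that chose both genes fixed this sign in advance for each pair left out and each library set alone. The sign is therefore no test of the difference, and only its size is described. Leaving out 1 pair in turn gave 0.32 to 0.44 for Cirbp and 0.12 to 0.19 for Rbm3. Slopes of Cirbp near 0 changed sign, by culture day to 0.0046 in control dishes alone and 0.0014 without pair 4, and by library set to -0.0412 and -0.0360. Leaving out 1 pair in turn, these ranged from -0.0249 to 0.0014 and from -0.0360 to 0.0784. The number of genes called was 0 in the library set model, 3 with all genes of any count, and 150 with the pair as a replicate block. Leaving out pairs 1, 3, 4, 5, 6 and 7 in turn (added after seeing the data), the paired count was 176, 90, 8, 71, 106 and 140, and it was 0 with plain empirical Bayes. The block left the differences of the members as they were and lowered their standard errors as given in the report, and beside the genes named in the report it changed no call in the lists. The lists were split as before with TMM and quantile normalization, apart from 1 or 2 genes near 0. With edgeR on recovered reads of 9 libraries, 17 of 22 heat shock genes were lower, the mitochondrial list was split 6 to 5 and no gene was called. Depth did not limit the members, whose counting error was below 3%, and in simulation 1.2-fold changes were recovered in 0% of genes by the library set model and in 55% by the paired model.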
